A study of Homo sapiens with 8 samples.

Results

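The kinesins were taken as every gene of the deposited table whose symbol was KIF or KIFC followed by a number and, in some, a letter from A to C. This gave 42 of the 20323 genes. RNA sequencing measured their messages in H2452, an established human line of biphasic pleural mesothelioma labelled as wild type. DPT libraries came from H2452 cells given 20 nM deoxypodophyllotoxin, a plant lignan that binds tubulin, for 48 h, and DMSO libraries from H2452 cells given the solvent for 48 h. Each group had 4 libraries, which the series calls biological replicates, and the comparison asks which kinesin messages differ between DPT and DMSO libraries. The state of the microtubules was not measured in these libraries. All 8 libraries are from 1 cell line, so the replicates measure the spread between cultures of that line only.

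Kinesins are motor proteins that bind microtubules and use ATP to walk along them, slide them or shorten their ends. Mitotic kinesins push spindle poles apart, align chromosomes and build the midzone that guides cytokinesis, and many of their genes are read mainly in the cell cycle phases G2 and M. Transport kinesins carry vesicles, organelles and messenger RNA through cells at all stages. By these textbook roles the family was divided into 15 mitotic, 15 transport, 6 cilium, centriole or Hedgehog, and 6 other kinesins. Of these, 13 mitotic, 14 transport, 4 cilium and 4 other kinesins passed the filter on low counts, which makes 35 tested genes and 7 untested ones.

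Library totals ran from 14964422 to 17205395 counts, so that a floor of 3 counts was 0.175 to 0.203 CPM (counts scaled to library size). All 10 listed mesothelial and epithelioid markers had reads, and their summed level was 1377 to 2215 FPKM in DPT and 2079 to 3028 FPKM in DMSO. FPKM divides a gene's fragments by its length and by the size of the library. That sum came mostly from KRT8, KRT18, KRT7 and KRT19, which averaged 848, 676, 310 and 142 FPKM over the 8 libraries. The rest each averaged under 10 FPKM, among them MSLN at 7.35, CALB2 at 8.83 and WT1 at 5.32. CALB2 and WT1 had higher means in DPT than in DMSO, and the other listed markers had lower ones. Listed leukocyte markers summed to 4.18 to 12.9 FPKM in DPT and 5.40 to 18.3 FPKM in DMSO, and the 3 endothelial markers summed to 0.566 to 1.62 FPKM in DPT and 0.248 to 1.24 FPKM in DMSO. DPT replicate 2 and DMSO replicate 3 stood apart from the other 6 libraries and are called the pair here. The 6 listed proliferation genes summed to 624 FPKM in DPT replicate 2 and 566 FPKM in DMSO replicate 3, against 323 to 365 FPKM in the other 6. The 5 interferon-stimulated genes summed to 317 and 454 FPKM in those 2 libraries, against 1960 to 2132 FPKM in the other 6. The labels give no reason for this, and what set these libraries apart was not tested.

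The promoters of a few members are shown because mitotic kinesins share short letters there that most transport kinesins lack. The windows are RefSeq's on GRCh38.p14, 300 bases long, from 250 bases before to 50 bases after the start, and capitals mark TTTGAA or TTCGAA (the letters of the cell cycle genes homology region, CHR) and CCAAT (the CCAAT box) on either strand. KIF11 lies at chr10:92592880-92593179 on the plus strand, KIF18A at chr11:28108107-28108406 on the minus strand, and KIF23 at chr15:69414099-69414398 on the plus strand. KIF4A lies at chrX:70289854-70290153 on the plus strand, KIF2A at chr5:62305956-62306255 on the plus strand, and KIF5B at chr10:32056376-32056675 on the minus strand.
KIF11: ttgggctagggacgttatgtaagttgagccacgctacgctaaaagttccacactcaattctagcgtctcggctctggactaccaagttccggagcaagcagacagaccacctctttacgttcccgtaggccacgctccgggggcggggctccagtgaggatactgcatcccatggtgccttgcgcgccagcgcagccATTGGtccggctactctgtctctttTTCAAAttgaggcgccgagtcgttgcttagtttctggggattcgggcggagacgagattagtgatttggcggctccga
KIF18A: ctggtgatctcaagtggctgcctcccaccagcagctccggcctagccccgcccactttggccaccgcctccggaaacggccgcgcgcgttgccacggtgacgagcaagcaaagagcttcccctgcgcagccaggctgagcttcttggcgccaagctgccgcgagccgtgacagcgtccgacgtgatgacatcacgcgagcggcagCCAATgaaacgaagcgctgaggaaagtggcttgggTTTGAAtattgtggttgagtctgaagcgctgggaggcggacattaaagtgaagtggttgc
KIF23: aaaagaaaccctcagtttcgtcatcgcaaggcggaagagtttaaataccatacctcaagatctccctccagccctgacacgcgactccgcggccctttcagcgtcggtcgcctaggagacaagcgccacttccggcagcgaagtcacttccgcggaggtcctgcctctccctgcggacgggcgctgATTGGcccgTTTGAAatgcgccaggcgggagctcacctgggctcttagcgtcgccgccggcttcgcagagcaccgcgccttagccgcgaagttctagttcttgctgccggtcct
KIF4A: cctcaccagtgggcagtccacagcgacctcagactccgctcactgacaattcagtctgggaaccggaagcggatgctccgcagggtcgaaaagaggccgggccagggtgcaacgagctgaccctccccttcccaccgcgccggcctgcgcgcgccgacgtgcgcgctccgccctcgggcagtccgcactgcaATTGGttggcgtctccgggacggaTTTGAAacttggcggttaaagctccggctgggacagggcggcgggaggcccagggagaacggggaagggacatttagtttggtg
KIF2A: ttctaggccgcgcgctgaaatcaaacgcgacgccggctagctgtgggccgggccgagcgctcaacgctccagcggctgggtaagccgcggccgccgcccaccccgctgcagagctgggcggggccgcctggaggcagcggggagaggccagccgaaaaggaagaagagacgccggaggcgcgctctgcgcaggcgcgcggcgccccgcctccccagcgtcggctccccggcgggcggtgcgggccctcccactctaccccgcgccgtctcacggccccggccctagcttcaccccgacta
KIF5B: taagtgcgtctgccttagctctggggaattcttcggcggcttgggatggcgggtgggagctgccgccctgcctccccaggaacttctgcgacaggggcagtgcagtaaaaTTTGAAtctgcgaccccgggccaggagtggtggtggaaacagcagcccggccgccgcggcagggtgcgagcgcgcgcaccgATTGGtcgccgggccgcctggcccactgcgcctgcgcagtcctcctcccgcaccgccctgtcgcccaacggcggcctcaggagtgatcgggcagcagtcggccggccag
The CHR letters began 28 bases before the start in KIF11, 10 before it in KIF18A, 55 before it in KIF23 and 34 before it in KIF4A, each with a CCAAT box upstream of them. KIF2A, a mitotic kinesin that also works in cells that do not divide, had neither. KIF5B, a transport kinesin, had CHR letters farther out, 140 bases before the start. In the windows shown, CHR letters and CCAAT did not overlap each other.

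RefSeq windows were found for 34 of the 42 members, with the first listed start taken for the 7 members that had several. CHR letters stood in 11 of 15 mitotic windows (73.3%), in 1 of 11 transport windows (KIF5B), in 1 of 4 cilium windows (KIF24) and in 0 of 4 other windows, against 16.6% of the 27305 promoters in the table. CCAAT stood in 11 of 15 mitotic windows, against 35.7% of all promoters, and both sets of letters stood in 10 of 15, against 6.58% of all promoters. In all 11 mitotic windows the CHR letters began between 60 bases before and 40 bases after the start, a range set after the matches were seen, which held such letters in 5.25% of all promoters. The mitotic kinesins without CHR letters in the window were KIF20A, KIF2A, KIF2B and KIF2C. A match is a description of the letters, not of binding.

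The transport kinesin KIF5B had the highest level of the family, and mitotic kinesins made up a share like that of transport kinesins. KIF5B, a heavy chain of conventional kinesin, averaged 106 FPKM over the 8 libraries. It was followed by KIF20A at 53.6, KIFC3 at 47.9, KIF23 at 46.9, KIF1C at 43.1 and KIF13A at 39.7 FPKM. The tested mitotic kinesins ran from 5.05 FPKM (KIF15) to 53.6 FPKM (KIF20A) with a median of 25.6. The transport kinesins spread more widely, from 0.193 FPKM (KIF5C) to 106 FPKM with a median of 4.18, and the neuron-associated KIF1A, KIF5C and KIF17 averaged under 1 FPKM. Cilium kinesins averaged 1.54 to 2.94 FPKM, and other kinesins 0.154 FPKM (KIF26B) to 14.6 FPKM (KIF21A).

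**Figure D1:**
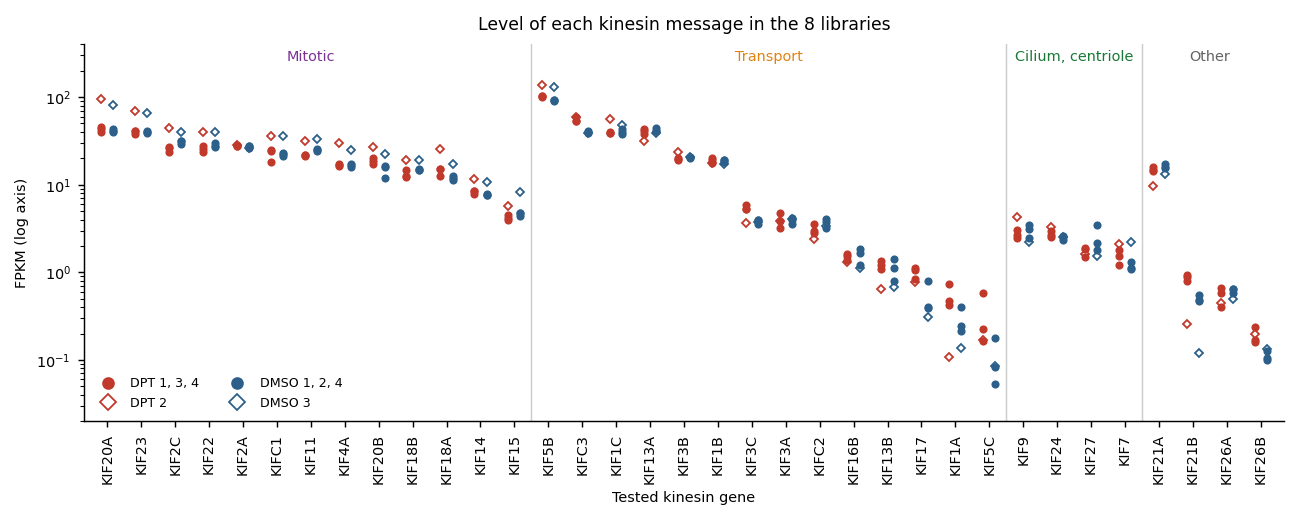
FPKM of each tested kinesin on a log axis, by role, with DPT libraries to the left of DMSO libraries of each gene. Filled circles are the 6 libraries outside the pair, open diamonds are DPT replicate 2 and DMSO replicate 3. KIF5B, at a mean of 106 FPKM, is the highest point group, and the open diamonds lie above the circles in most mitotic kinesins.

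Summed over the class, mitotic kinesins had 295, 463, 262 and 287 FPKM in DPT replicates 1 to 4, against 288, 285, 425 and 284 FPKM in DMSO replicates 1 to 4. The groups overlapped, and in each group the highest library was the one of the pair. Transport kinesins summed to 287, 339.7, 291 and 302 FPKM in DPT, against 267, 266, 307 and 273 FPKM in DMSO. The transport sums overlapped through DMSO replicate 3 alone. Outside the pair the DPT sums lay above the DMSO sums, and in the pair DPT replicate 2 lay above DMSO replicate 3. Within kinesin messages the mitotic class made up 45.2% to 56.2% in DPT libraries and 48.6% to 56.4% in DMSO libraries. Fewer cells that hold a message and less of it per cell cannot be told apart in such bulk libraries.

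With all 8 libraries, 1 of the 35 tested kinesins passed the test. KIFC3 was higher in DPT, and no kinesin was called lower, by edgeR's quasi-likelihood test at a Benjamini-Hochberg adjusted p under 0.05 over all 12648 tested genes. That is 2.86% of the kinesins, against 11.0% of all tested genes, of which 5.68% were called higher and 5.29% lower. At an unadjusted p under 0.05, 4 kinesins were higher and 1 was lower, beside 26.5% of all tested genes in either direction. DESeq2 called 3 higher and 0 lower, beside 15.8% of all genes, and limma-voom called 2 higher and 0 lower, beside 10.6%. Median log2 fold changes were -0.01 for mitotic kinesins and 0.00 for transport kinesins, beside 0.00 for all tested genes. Leaving out DPT replicate 2 gave 4 calls higher (KIFC3, KIF3C, KIF17 and KIF1A) and 2 lower (KIF2C and KIF11), and leaving out DMSO replicate 2 gave 2 higher (KIFC3 and KIF17). The 6 other omissions gave 1 higher and 0 lower. The share of all tested genes called was not counted for the omissions, so these numbers cannot be set against it. Leaving out DPT replicate 2 keeps DMSO replicate 3 in DMSO, so the difference of the pair from the other libraries enters that comparison.

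A term for the pair in the same model, which compares DPT with DMSO inside the pair and inside the other 6 libraries, called 12 of the 35 kinesins. Of these, 7 were higher in DPT (KIF20B, KIF18A, KIFC3, KIF3C, KIF17, KIF21B and KIF26B) and 5 were lower (KIF2C, KIF11, KIF13A, KIFC2 and KIF21A). The share of 34.3% lies beside 34.0% of all tested genes, 16.9% higher and 17.0% lower, so kinesins were called about as often as genes at large. Mitotic kinesins gave 2 higher and 2 lower of 13, transport kinesins 3 higher and 2 lower of 14, cilium kinesins 0 of 4, and other kinesins 2 higher and 1 lower of 4. Medians under this fit were -0.02 for mitotic and 0.00 for transport kinesins, so the median gene of neither class moved far from 0. The summed transport FPKM given above, which rests most on the highest genes, was higher in DPT inside and outside the pair. It includes the called KIFC3, at 53.0 to 59.8 FPKM in DPT and 38.9 to 40.5 FPKM in DMSO. With the pair term 7 of 14 transport kinesins had a positive fold change, so the sum does not speak for the class. The typical spread between replicates (biological coefficient of variation) was 14.9% without the term and 6.30% with it. The pair was recognised in these same data, so the smaller spread comes from a term chosen with them in view.

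**Figure D2:**
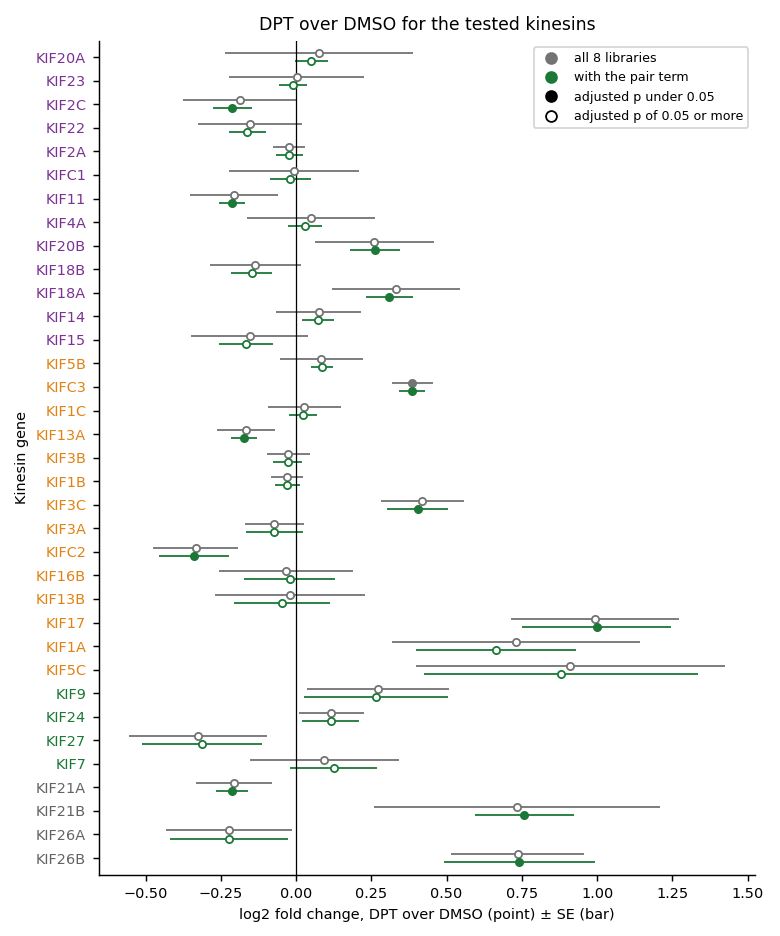
Fitted log2 fold change of DPT over DMSO for the 35 tested kinesins, with bars of ± 1 standard error, from all 8 libraries (grey) and from the same libraries with the pair term (green). Filled points have an adjusted p under 0.05, which only KIFC3 reaches in grey and 12 kinesins reach in green.

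Among the motors that set the spindle's 2 poles apart, KIF11 was lower in DPT once the pair was accounted for, while KIF15 and KIFC1 did not pass in either fit. KIF11, the tetrameric motor that slides antiparallel microtubules apart (gene at chr10:92593286-92655395, plus strand), had 108, 156, 104 and 109 CPM in DPT replicates 1 to 4, against 127, 123, 169 and 131 CPM in DMSO replicates 1 to 4. The library of the pair was the highest in each group, and in the other 6 libraries every DPT value lay below every DMSO value. On the log2 scale the fold change was -0.21 ± 0.15 (SE) with all libraries (edgeR adjusted p = 0.42) and -0.21 ± 0.04 with the pair term (edgeR adjusted p = 0.00137), 1.16-fold lower in DPT. Without DPT replicate 2 and no pair term, KIF11 was called at -0.36 (edgeR adjusted p = 0.0437). That fit keeps the pair's high DMSO replicate 3 in DMSO. In the 6 libraries without the pair KIF11 was at -0.25. Over the 8 omissions of a library it ran from -0.36 to -0.09 (edgeR adjusted p from 0.0437 to 0.678), with 1 call.

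KIF15, which backs up KIF11 in keeping spindles bipolar, had 15.5, 24.3, 14.5 and 14.5 CPM in DPT and 17.5, 15.5, 24.2 and 19.2 CPM in DMSO, and its groups overlapped. KIFC1, a motor that walks to minus ends and focuses poles, had 50.9, 81.5, 41.2 and 51.5 CPM in DPT and 49.1, 51.1, 76.3 and 49.7 CPM in DMSO. For KIF15 the log2 fold change was -0.17 ± 0.09 with the pair term (edgeR adjusted p = 0.171), and for KIFC1 it was -0.02 ± 0.07 (edgeR adjusted p = 0.862).

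Of the 6 tested motors that shorten microtubule ends or move chromosomes, KIF18A was higher and KIF2C lower in DPT in the fit with the pair term. KIF18A, which walks to plus ends and damps chromosome movements at the spindle's centre (chr11:28020620-28108308, minus strand), had 51.5, 85.7, 42.3 and 51.3 CPM in DPT, against 43.9, 41.1, 58.6 and 39.7 CPM in DMSO. The groups overlapped, with DPT replicates 1, 3 and 4 all within the DMSO range, and the pair's library was the highest of each group. Outside the pair, DPT replicate 3 alone lay within it. With all libraries the log2 fold change was 0.33 ± 0.21 (edgeR adjusted p = 0.365), and with the pair term 0.31 ± 0.08 (edgeR adjusted p = 0.00527), 1.24-fold higher in DPT.

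KIF2C, a depolymerase that corrects faulty attachments of chromosomes (chr1:44739818-44767767, plus strand), had 70.6, 111, 61.4 and 63.5 CPM in DPT, against 81.8, 79.7, 106 and 81.2 CPM in DMSO. Outside the pair the DPT values lay below the DMSO values, while in the pair DPT replicate 2 was slightly above DMSO replicate 3. KIF2C had a log2 fold change of -0.19 ± 0.19 with all libraries (edgeR adjusted p = 0.577). It was -0.21 ± 0.07 with the pair term (edgeR adjusted p = 0.0208) and -0.31 in the 6 libraries alone (edgeR adjusted p = 0.000549). With the pair term the KIF2C call was lost in 4 of 6 omissions, those of DPT replicates 3 and 4 and of DMSO replicates 1 and 4, and the adjusted p over all 6 omissions ran from 0.0253 to 0.0789.

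The others of this set did not pass in either fit. KIF2A, a relative of KIF2C, stood out by how little it varied, with 114.9 to 120.0 CPM in DPT and 116.2 to 124.4 CPM in DMSO. Of its exon bases, 8.97% are shared with IPO11 on the same strand, where reads may not be separated. KIF4A and KIF22, which bind chromosome arms, and KIF18B, which works at astral microtubule ends, had log2 fold changes of 0.03, -0.16 and -0.15 with the pair term. KIF22 came close (edgeR adjusted p = 0.0502), and in the 6 libraries without the pair KIF22 and KIF18B were both called lower, at -0.20 and -0.22.

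Midzone and cytokinesis motors held 1 call. KIF20B, needed late in cytokinesis (chr10:89701610-89774939, plus strand), had 117, 168, 101 and 125 CPM in DPT, against 103, 104, 143 and 76.5 CPM in DMSO. DMSO replicate 4 was the lowest of all, and DPT replicates 1, 3 and 4 lay within the DMSO range. KIF20B had a log2 fold change of 0.26 ± 0.20 with all libraries (edgeR adjusted p = 0.451) and 0.26 ± 0.08 with the pair term (edgeR adjusted p = 0.0216). The pair-term call was lost when DPT replicate 1, DPT replicate 4 or DMSO replicate 4 was left out (0.17 at the lowest, with adjusted p up to 0.0916).

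KIF20A, which brings Aurora B kinase to the midzone and had the highest mitotic level, had 138, 282, 119 and 131 CPM in DPT, against 127, 125, 248 and 136 CPM in DMSO. Its log2 fold change was 0.08 ± 0.31 with all libraries and 0.05 ± 0.05 with the pair term (edgeR adjusted p = 0.509), and its sign turned in some of the omissions given in the closing section. KIF23, the motor subunit of centralspindlin, and KIF14, which acts at the midbody, had log2 fold changes of -0.01 and 0.07 with the pair term and were not called.

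The difference between the pair and the other libraries exceeded any difference between DPT and DMSO in most mitotic kinesins. In 12 of the 13 tested mitotic kinesins, all but KIF2A, DPT replicate 2 and DMSO replicate 3 both lay above the other 6 libraries. That is 92.3% of the class, against 17.4% of all tested genes and 2 of 14 transport kinesins (KIF5B and KIF1C). DPT replicate 2 over the other DPT libraries ran from 1.40-fold in KIF14 to 2.18-fold in KIF20A, with a median of 1.67. DMSO replicate 3 over the other DMSO libraries ran from 1.25-fold in KIF18B to 1.92-fold in KIF20A, with a median of 1.40. The proliferation genes given above moved with these libraries too, and their part in the result was not tested.

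Some kinesins lay lower in the pair. KIF13A, KIF16B, KIF13B and KIF1A of the transport class, and KIF21A and KIF21B, had both libraries of the pair below the other 6, which is 6 of 35 (17.1%) beside 17.0% of all tested genes. KIF21B had 2.40 CPM in DPT replicate 2 and 1.05 CPM in DMSO replicate 3, the lowest of their groups by far. Among cilium kinesins, KIF7 lay above in both libraries of the pair. Of the exon bases of KIF7, 11.8% lie opposite TICRR, and strand use in counting is not stated, so reads of these genes may not be separated.

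**Figure D3:**
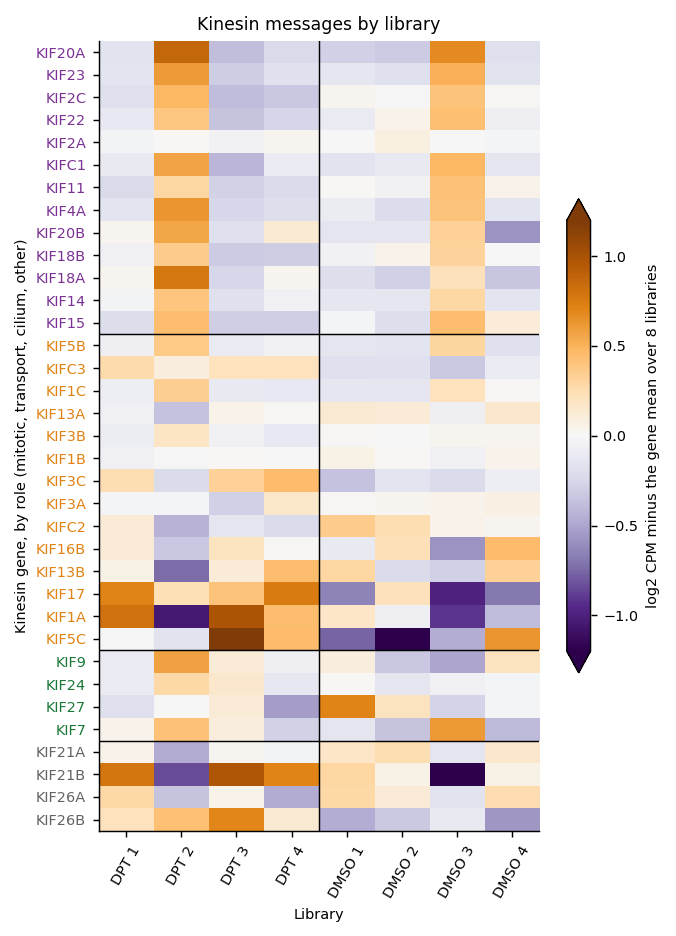
Log2 CPM of each tested kinesin minus its mean over the 8 libraries, with DPT replicates left of DMSO replicates and genes ordered by role (symbol colours: mitotic purple, transport orange, cilium green, other grey). The colour scale ends at 1.2 in either direction, and the columns of DPT replicate 2 and DMSO replicate 3 stand out as high in 12 of the 13 mitotic kinesins.

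KIFC3 was the transport kinesin with the steadiest difference. This motor walks to minus ends and works at cell junctions and in Golgi positioning (chr16:57758217-57863053, minus strand). KIFC3 had 143, 126, 137 and 137 CPM in DPT, against 105, 105, 94.3 and 111 CPM in DMSO. Every DPT library lay above every DMSO library, and the pair held the lowest value of each group. The means were 135 ± 7.06 CPM in DPT and 104 ± 6.83 CPM in DMSO (SD, n = 4 each), a log2 fold change of 0.39 ± 0.07 (edgeR adjusted p = 0.00862), 1.31-fold higher in DPT. The KIFC3 call held in each of the 8 omissions of a library (edgeR adjusted p from 0.00305 to 0.0347). It was lost with a block for the replicate number (edgeR adjusted p = 0.0603), and whether equal numbers pair the samples is not known.

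KIF5B, the heavy chain of conventional kinesin, did not pass in either fit. It had 589.9, 796, 577 and 598 CPM in DPT, against 557, 552, 760.2 and 547 CPM in DMSO. The pair was highest here too, and outside it the DPT values lay above the DMSO values. With the pair term the log2 fold change was 0.09 ± 0.04 (edgeR adjusted p = 0.0783).

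The kinesin-2 group differed among its own members. KIF3A pairs with KIF3B or KIF3C to form motors for cilia and vesicles. KIF3C (chr2:25926596-25982749, minus strand) had 26.4, 19.2, 27.8 and 30.6 CPM in DPT, against 17.3, 20.1, 19.1 and 21.2 CPM in DMSO. DPT replicate 2 lay at the DMSO level, and the other 3 DPT libraries lay above every DMSO library. The log2 fold change was 0.42 ± 0.14 with all libraries (edgeR adjusted p = 0.0841) and 0.40 ± 0.10 with the pair term (edgeR adjusted p = 0.0053). KIF3A had 18.2, 18.1, 15.2 and 20.7 CPM in DPT and 18.7, 18.9, 19.0 and 19.4 CPM in DMSO, a log2 fold change of -0.07 ± 0.09 with the pair term (edgeR adjusted p = 0.594). KIF3B was at -0.03 ± 0.05 in the same fit. The ratio of KIF3C to KIF3A in a library was 1.45, 1.06, 1.84 and 1.48 in DPT, against 0.928, 1.06, 1.01 and 1.10 in DMSO, so DPT replicate 2 was again the library that overlapped.

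KIF17, the kinesin-2 motor that works as a pair of like chains in dendrites and cilia (chr1:20664014-20718017, minus strand), had the largest fitted change among the called kinesins at a low level. It had 3.97, 2.88, 3.23 and 4.10 CPM in DPT, against 1.56, 2.85, 1.23 and 1.52 CPM in DMSO. The groups did not overlap, but DMSO replicate 2 nearly reached DPT replicate 2. The log2 fold change was 0.99 ± 0.28 with all libraries (edgeR adjusted p = 0.0506) and 1.00 ± 0.25 with the pair term (edgeR adjusted p = 0.00515), 2.00-fold higher in DPT.

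KIF13A and KIFC2 were the transport kinesins called lower with the pair term. KIF13A, a kinesin-3 that moves endosomal vesicles (chr6:17759183-17987623, minus strand), had 208, 167, 223 and 217 CPM in DPT, against 236, 234, 206 and 239.8 CPM in DMSO. The pair was lowest in each group, and outside it DPT lay below DMSO. KIF13A had a log2 fold change of -0.17 ± 0.04 with the pair term (edgeR adjusted p = 0.00661), 1.13-fold lower in DPT. With all libraries KIF13A was at -0.17 ± 0.10 (edgeR adjusted p = 0.316). KIFC2, a minus-end motor known from neurons (chr8:144466043-144474202, plus strand), had 11.4, 7.73, 9.5 and 9.0 CPM in DPT, against 13.5, 12.5, 10.8 and 10.7 CPM in DMSO. DPT replicate 1 lay within the DMSO range, and 17.8% of its exon bases lie opposite FOXH1, and reads of the genes may not be separated, because nothing says whether strand was used in counting. The log2 fold change of KIFC2 was -0.33 ± 0.14 with all libraries (edgeR adjusted p = 0.167) and -0.34 ± 0.12 with the pair term (edgeR adjusted p = 0.0341). The pair-term call was lost in 4 of 6 omissions, those of DPT replicates 3 and 4 and of DMSO replicates 1 and 2 (adjusted p up to 0.108).

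The remaining transport kinesins did not pass in either of these fits. KIF1B and KIF1C, kinesin-3 motors of vesicles and organelles, had log2 fold changes of -0.03 ± 0.04 and 0.02 ± 0.05 with the pair term. KIF16B and KIF13B were at -0.02 ± 0.15 and -0.05 ± 0.16. KIF1A had 3.49, 0.958, 3.94 and 2.69 CPM in DPT and 2.23, 1.90, 1.05 and 1.52 CPM in DMSO (log2 fold change 0.66 ± 0.27, edgeR adjusted p = 0.0648 with the pair term), and in the 6 libraries alone it was called at 0.84 (edgeR adjusted p = 0.0218). KIF5C stood at 0.719 to 2.39 CPM in DPT and 0.339 to 1.25 CPM in DMSO.

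No cilium or centriole kinesin was called in either fit. KIF9, a motor of motile cilia, had the highest mean level of the class, with 2.63, 4.19, 3.05 and 2.69 CPM in DPT and 2.98, 2.24, 1.98 and 3.23 CPM in DMSO, and these groups overlapped. KIF24, which caps centrioles, KIF7, which acts in Hedgehog signalling at the cilium tip, and its relative KIF27 had log2 fold changes of 0.11 ± 0.09, 0.13 ± 0.14 and -0.31 ± 0.20 with the pair term.

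Of the other kinesins, KIF21B and KIF26B were higher and KIF21A lower in DPT with the pair term. KIF21A and KIF21B are close relatives that restrain microtubule growth. KIF21A (chr12:39293228-39443390, minus strand) had 64.3, 44.7, 62.7 and 60.5 CPM in DPT, against 69.8, 73.4, 55.8 and 68.9 CPM in DMSO. KIF21B (chr1:200969390-201023700, minus strand) had 7.40, 2.40, 8.42 and 7.04 CPM in DPT, against 5.28, 4.47, 1.05 and 4.48 CPM in DMSO. In both genes the pair was lowest in each group, and outside it the groups did not overlap, with KIF21A lower and KIF21B higher in DPT. With the pair term the log2 fold change was -0.21 ± 0.05 for KIF21A (edgeR adjusted p = 0.00558) and 0.76 ± 0.16 for KIF21B (edgeR adjusted p = 0.00195). With all libraries it was -0.21 ± 0.13 for KIF21A (edgeR adjusted p = 0.342) and 0.73 ± 0.48 for KIF21B (edgeR adjusted p = 0.37).

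KIF26B, an atypical kinesin tied to cell adhesion and polarity (chr1:245154985-245709431, plus strand), had 2.26, 2.64, 3.17 and 2.14 CPM in DPT, against 1.42, 1.56, 1.81 and 1.32 CPM in DMSO. All DPT libraries lay above all DMSO libraries at this low level. Its relative KIF26A was at -0.22 ± 0.20 with the pair term and was not called. The log2 fold change was 0.74 ± 0.22 with all libraries (edgeR adjusted p = 0.0618) and 0.74 ± 0.25 with the pair term (edgeR adjusted p = 0.0306). The KIF26B call was lost in 4 of 6 omissions, those of DPT replicate 3 and of DMSO replicates 1, 2 and 4 (adjusted p up to 0.121). Over all 35 kinesins, KIFC3, KIF17 and KIF26B were those with no overlap between the 4 DPT and 4 DMSO libraries, each higher in DPT, which is 8.57% beside 9.50% of all tested genes with DPT above. None lay below, beside 8.73% of all tested genes, and the share in either direction was 18.2%. Outside the pair, 16 of 35 kinesins (45.7%) had no overlap between 3 DPT and 3 DMSO libraries, beside 45.5% of all tested genes. Of these, 7 lay above in DPT and 9 below, beside 22.8% of all tested genes in each direction.

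**Figure D4:**
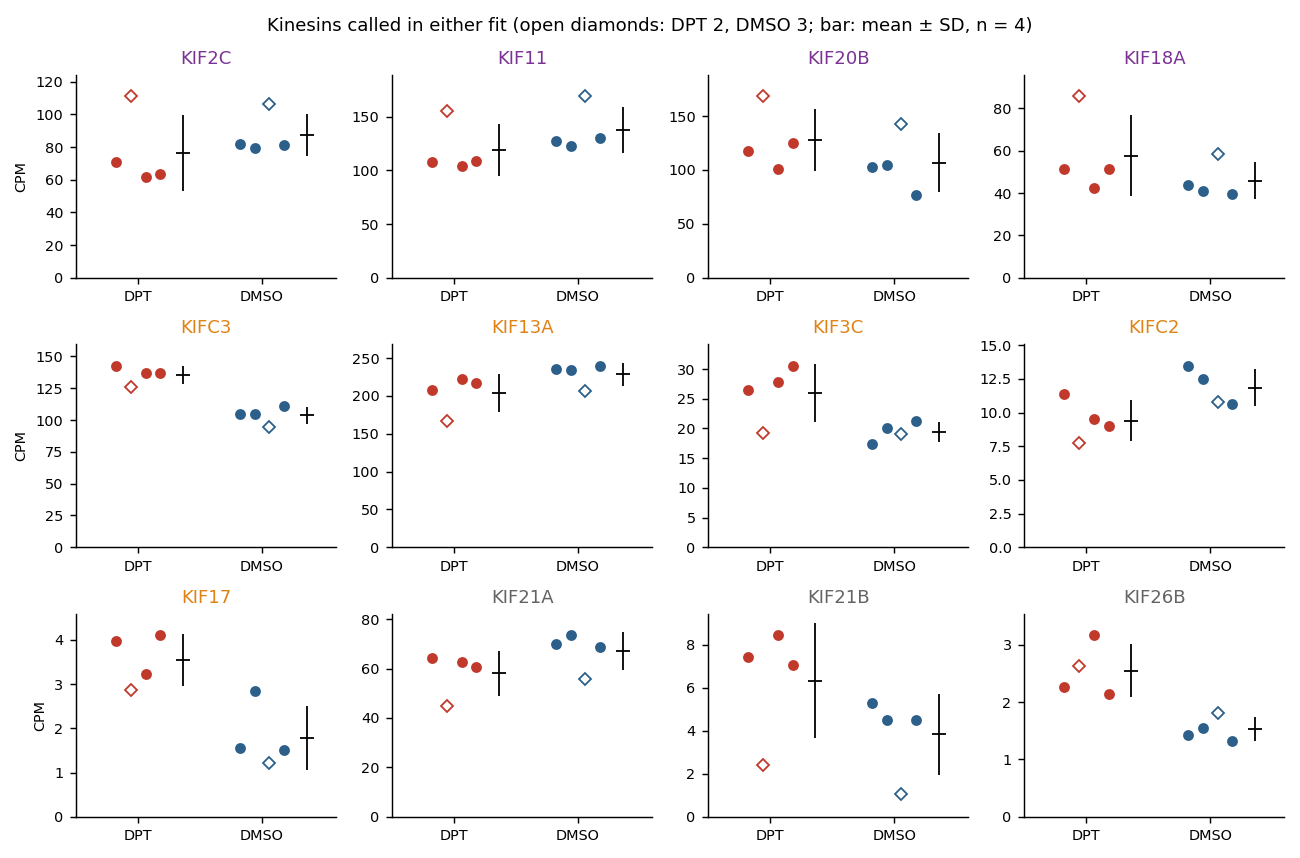
CPM of the 12 kinesins called in either fit, 1 panel each, DPT left of DMSO, axes from 0. Filled circles are single libraries, open diamonds are DPT replicate 2 and DMSO replicate 3, and the black bar is the mean ± SD of 4 libraries. KIFC3, KIF17 and KIF26B show no overlap between the groups.

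Of the 12 calls with the pair term, KIF11, KIF13A, KIF17, KIF18A, KIF21A, KIF21B, KIF3C and KIFC3 were kept in all 6 omissions of a library outside the pair. The 6 libraries without the pair gave 8 kinesins higher and 6 lower, 14 of 35 (40%) beside 34.1% of all tested genes. Of those 14, 11 had the same sign in DPT replicate 2 minus DMSO replicate 3, which took no part in that fit, and the exceptions were KIF1A, KIF2C and KIF18B. The share was 78.6%, beside 85.8% for all genes called in those 6 libraries (3713 of 4327). KIF3C kept its sign by a difference of 0.01 on the log2 scale. Whether the DPT effect itself differed between the pair and the other libraries was tested with an interaction term, which edgeR called in 0 of 35 kinesins and in 0.941% of all tested genes. At an unadjusted p under 0.05 it took 6 kinesins (KIF9, KIF2C, KIF4A, KIF18A, KIF3B and KIF3C), 17.1% beside 11.9% of all tested genes. The pair holds 1 library of each group, so the spread in this test came from the other 6 libraries. The lack of calls therefore does not show that the DPT effect was alike in the pair.

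Ratios within a library put aside what the mitotic kinesins shared across libraries. They were chosen after the values were seen and are given as a description with no test. Among the 78 pairs of tested mitotic kinesins, 20 had ratios that did not overlap between DPT and DMSO libraries, 25.6% beside 17.7% of all 79979628 pairs of tested genes. Among the 91 pairs of transport kinesins, 12 did (13.2%). The 78 mitotic ratios reuse the same 13 genes. Of these genes, 12 were high together in DPT replicate 2 and DMSO replicate 3, which a ratio cancels and which genes at large need not share. The share of mitotic ratios and that of all gene pairs are therefore not like for like. KIF18A took part in 8 of the 20, KIF20B in 5, and KIF20A and KIF2A in 0. The ratio of KIF18A to KIF11 was 0.478, 0.551, 0.405 and 0.472 in DPT, against 0.345, 0.334, 0.347 and 0.304 in DMSO. The ratio of KIF18A to KIF2C was 0.730, 0.772, 0.689 and 0.808 in DPT, against 0.536, 0.516, 0.552 and 0.489 in DMSO. In both ratios all DPT libraries, the pair's included, lay above all DMSO libraries, unlike the levels of the single genes. The ratio of KIF20B to KIF11 was 0.965 to 1.15 in DPT and 0.586 to 0.847 in DMSO.

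**Figure D5:**
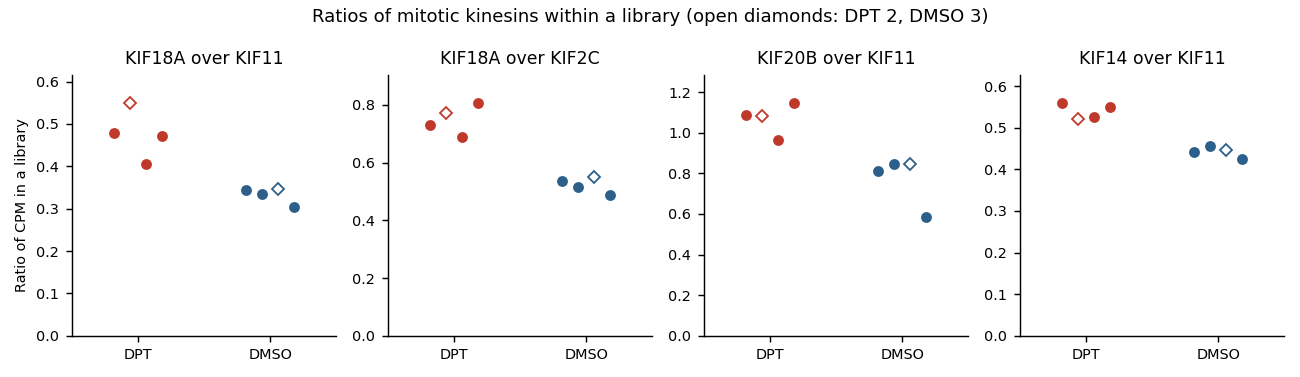
Ratios of CPM of mitotic kinesins within each library, DPT left of DMSO, axes from 0, with open diamonds for DPT replicate 2 and DMSO replicate 3. These 4 ratios were picked after the values were seen, and in each the DPT and DMSO libraries do not overlap, as in KIF18A over KIF11 at 0.405 to 0.551 in DPT and 0.304 to 0.347 in DMSO.

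Genes that work with kinesins, and the dynein and dynactin genes that move cargo to minus ends, gave 5 calls among 47 tested rows with all libraries, 3 higher and 2 lower. The share of 10.6% lies beside 11.0% of all tested genes. These lists were set by textbook role. KLC2, a kinesin light chain that links KIF5 heavy chains to cargo, had 54.9, 52.2, 50.5 and 49.6 CPM in DPT, against 44.4, 43.0, 43.9 and 43.3 CPM in DMSO, and the groups did not overlap. Its log2 fold change was 0.25 ± 0.06 (edgeR adjusted p = 0.0286), and it lost the call in 6 of 8 omissions of a library (adjusted p up to 0.0885). KLC4, another light chain, had 6.91, 8.98, 8.66 and 6.25 CPM in DPT, against 11.1, 11.9, 11.8 and 10.9 CPM in DMSO, a log2 fold change of -0.57 ± 0.14 (edgeR adjusted p = 0.0276). So the light chains called went in opposite directions. SPAG9, a scaffold of the JNK pathway that binds light chains, and BICD2, a dynein adaptor, were higher at 0.23 ± 0.06 and 0.28 ± 0.07 (edgeR adjusted p = 0.0364 and 0.0392). DYNLL2, a dynein light chain, was lower at -0.26 ± 0.07 (edgeR adjusted p = 0.0329).

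Leaving out any single library outside the pair ended the calls of KLC2, BICD2 and DYNLL2, with adjusted p up to 0.12 for BICD2 and 0.097 for DYNLL2. The KLC4 call ended without DPT replicates 1 or 4 or DMSO replicates 1, 2 or 4 (adjusted p up to 0.0757), and that of SPAG9 without DPT replicates 3 or 4 or the same DMSO replicates (up to 0.115). With no filter on low counts KLC2, SPAG9 and BICD2 were no longer called either, at adjusted p of 0.0569, 0.0682 and 0.0603. With the pair term 8 rows were higher and 5 lower, 27.7% beside 34.0% of all tested genes, and PAFAH1B1 (LIS1), a dynein regulator, was among the lower ones at -0.20 ± 0.04 (edgeR adjusted p = 0.000696). PAFAH1B1 had 259, 287, 267 and 274 CPM in DPT, against 307, 304, 334 and 306 CPM in DMSO, with no overlap.

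The other partners named here, KIFAP3, CENPE, KIFBP and KLC1, were not called with all libraries or with the pair term. KIFAP3, the subunit that joins KIF3 motors to cargo, had 16.0, 14.7, 17.1 and 15.5 CPM in DPT, against 18.1, 17.2, 20.5 and 18.3 CPM in DMSO. All DPT libraries lay below all DMSO libraries, at -0.23 ± 0.09 (edgeR adjusted p = 0.138, and 0.0566 with the pair term). CENPE, a kinetochore kinesin whose symbol lies outside the KIF rule, had 37.4, 68.3, 27.5 and 39.6 CPM in DPT, against 31.8, 38.5, 70.1 and 20.8 CPM in DMSO, highest in the pair like the mitotic members. KIFBP, which blocks some kinesins from microtubules, was at 0.12 ± 0.06 (edgeR adjusted p = 0.222), and was called only in the 6 libraries without the pair (0.0408). KLC1 stood in the table under 2 gene IDs, at 72.0 to 83.9 CPM under ENSG00000126214 and 0 to 2.71 CPM under ENSG00000256500, whose reads may not be separated. The second ID was called in the 6 libraries without the pair alone (edgeR adjusted p = 0.0261).

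The 7 untested members were nearly silent. KIF6, KIF19, KIF2B and KIF12 had 1, 2, 2 and 2 counts over all 8 libraries, and KIF25 had 5. KIF5A, the neuronal conventional heavy chain, had 6, 1, 9 and 8 counts in DPT and 1, 0, 6 and 1 counts in DMSO. KIF4B, a near-identical copy of KIF4A without introns, had 7, 2, 3 and 3 counts in DPT and 1, 0, 1 and 0 counts in DMSO, which are uncertain because reads of KIF4A can be assigned to it.

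The count per FPKM of a gene gives the length the authors' estimate used in a library, which moves when the estimated mix of transcripts moves. Of 28 kinesins with at least 50 counts in each library, 21 had a highest length under 1.2 times the lowest. In 0 of 28 did the DPT and DMSO lengths separate. Lengths were computed for kinesins only, so no share over all genes stands beside these counts, and they are a description. KIF27, KIF15, KIF13B and KIFC3 varied most, at 1.74, 1.43, 1.40 and 1.29 times. For KIFC3 the lengths were 2125 to 2711 bases in DPT and 2413 to 2743 bases in DMSO.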

How the data were processed

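The deposited table gives an expected count and an FPKM value per gene and library, both made by the authors, per the file headers. Fractions made up 10.8% of the deposited expected counts. The submitters' processing notes name StringTie 1.3.1, RSEM, HISAT2, DESeq2 and fastp 0.18.0 with the build hg38, while annotation and strand use are not stated there. Expected counts were rounded and analysed with edgeR 4.0.16 in R 4.3.3 (filterByExpr minimum count 10 and total 15, TMM, quasi-likelihood test, Benjamini-Hochberg over 12648 genes). CPM is TMM-normalized. The unpaired fit on all 8 libraries is primary, beside fits with a term for DPT replicate 2 and DMSO replicate 3, with RLE factors, no filter, DESeq2 1.42.0, limma-voom 3.58.1 and single libraries left out.

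The members, role classes, partner lists and tests were chosen with earlier results of these data known. Genes named with values are those called in the fit on all libraries or with the pair term, the member with the highest level of each class, KIF11, KIF15, KIFC1, KIF18A, KIF2C, KIF5B and KIF3A, and of the partners the 3 with the smallest p in each direction and CENPE, KIFBP, KIFAP3, KLC1 and KLC2. Single values of other members were added as range or context after they were seen. Gene coordinates are from GENCODE release 29 and promoters from RefSeq, both on GRCh38.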

Additional observations from a re-analysis of the deposited data

Results flagged for a closer look

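In groups of 4 libraries, 12 of 44 values tested had 1 library far from the other 3, by Dixon's ratio, where chance gives about 1 in 20. Each time that library was DPT replicate 2 or DMSO replicate 3, and each time it was high. In DPT these were KIF20A at 282 CPM, KIF11 at 156 CPM, KIF5B at 796 CPM and KIF15 at 24.3 CPM, with the summed mitotic kinesins at 463 FPKM. In DMSO they were KIF20A at 248 CPM, KIF11 at 169 CPM, KIF5B at 760 CPM, KIF2C at 106 CPM and KIFC1 at 76.3 CPM, with the summed mitotic kinesins at 425 FPKM and the summed transport kinesins at 307 FPKM. The genes of a class share these libraries, so the flags are not independent of each other.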

How the results depend on the processing

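Kinesins called higher in DPT numbered 1 with all 8 libraries and 1 with RLE factors or no filter, but 3 with DESeq2, 2 with limma-voom, 7 with the pair term, 8 in the 6 libraries without the pair and 0 with the replicate block. Leaving out 1 library gave 1 to 4, and 5 to 6 with the pair term. Kinesins called lower numbered 0, but 5 with the pair term and 6 in the 6 libraries, 0 to 2 with 1 library left out, and 3 to 7 with the pair term and 1 left out. Partner and dynein genes called higher numbered 3, but 0 with no filter, 8 with the pair term, 9 in the 6 libraries, 0 with the replicate block and 0 to 3 with 1 left out. Those called lower numbered 2, but 4 with DESeq2, 5 with the pair term, 7 in the 6 libraries, 0 with the replicate block and 0 to 3 with 1 left out. For RLE factors, no filter, the replicate block and the omissions, the share of all tested genes called was not counted. Those numbers therefore show only how the calls moved between fits.

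Signs were followed over the fits only for the genes named by the rule above. Among these, signs that turned all belonged to genes with no call. Other members were not followed, and some turned too, such as KIF23 (0.002 with all libraries, -0.01 with the pair term). KIF9 was at -0.013 in the 6 libraries. KIF20A was at -0.02, -0.03 and -0.30 without DMSO replicate 1, DMSO replicate 2 and DPT replicate 2, CENPE at -5.8e-05, -0.12 and -0.21 without DMSO replicate 1, DMSO replicate 4 and DPT replicate 2, and KIF5B at -0.039 without DPT replicate 2. KIFC1 was at 0.17, 0.038, 0.12 and 0.033 without DMSO replicate 3 and DPT replicates 1, 3 and 4, and at 0.055 with the pair term and no DPT replicate 3. KIF3A was at 0.0033 without DPT replicate 3 and 0.0063 with the pair term as well. With 1 library left out these genes ran from -0.30 to 0.37 (KIF20A), -0.21 to 0.51 (CENPE), -0.039 to 0.21 (KIF5B), -0.24 to 0.17 (KIFC1) and -0.14 to 0.0033 (KIF3A). The median of the mitotic kinesins ran from -0.25 to 0.17 with 1 library left out, and that of the transport kinesins from 0.01 to 0.06. The cause of these shifts was not tested.

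The labels number replicates 1 to 4 in each group. Deviations of same-numbered libraries correlated at 0.20, -0.31, -0.40 and 0.21 across genes, and those of DPT replicate 2 and DMSO replicate 3 at 0.68. Each deviation was taken from its group's mean, which the pair's library shifts for the whole group. These values therefore cannot tell whether equal numbers pair the samples. The replicate block, a term for the replicate number, left KIFC3 at 0.39 (edgeR adjusted p = 0.0603), without a call. The fits that join the pair term with a left-out library were added after seeing the data. At 1 CPM the smallest library held 15 counts, and KIF5C, KIF1A, KIF21B, KIF26B and KIF17 fell to 5, 16, 18, 20 and 21 counts in their lowest library.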
